A study of Mus musculus with 12 samples.

Results

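Microtubule and lissencephaly genes are described here as a set of 10 genes, Dcx, Dclk1, Pafah1b1, Ndel1, Tuba1a, Tubb3, Tubb2b, Map2, Map1b and Mapt, taken by name. Of these, 9 had a row in the count tables, which list 23513 genes, and 8 passed the filter on low counts and were tested. Tubb3 was not analysed here. The measurements came from single nucleus RNA sequencing (snRNAseq) of the cerebral cortex of C57BL/6J mouse embryos, labelled embryonic day 14, from dams given saline or 2.5 g/kg ethanol (EtOH) by intraperitoneal injection once a day on 6 days from embryonic day 8.5. Tables were used for 5 saline embryos (S1-1 and S1-2 from dam S1, S2-1, S2-2 and S2-4 from dam S2) and 6 EtOH embryos (E1-1 and E1-2 from dam E1, E2-1 to E2-4 from dam E2), while saline embryo S2-3 was not analysed here. Batch 1 held the litters of S1 and E1 and batch 2 those of S2 and E2, so the 11 embryos stood for 2 litters per treatment, and p-values over embryos measured the spread between embryos without regard to the litter.

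Microtubules are the tracks along which a newborn cortical neuron moves its nucleus, extends its leading process and later its axon. Doublecortin (Dcx) and its relative Dclk1 bind and stabilise them in migrating neurons, LIS1 (Pafah1b1) and its partner Ndel1 regulate the motor dynein, which pulls the nucleus forward, alpha and beta tubulins build the tracks themselves, and Map2, Map1b and Mapt (tau) line them in dendrites and axons. In humans, changes in DCX, the LIS1 gene or several tubulin genes cause lissencephaly, a smooth cortex that follows from failed neuronal migration, or related malformations.

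The tables held 50550 nuclei in 25 clusters, which the authors grouped as radial glial cells (RGC, Clusters 2, 3, 12, 20 and 21), intermediate progenitor cells (IPC, Clusters 6 and 17), projection neurons (PN, 8 clusters), interneurons (Int, 7 clusters) and 3 others (striatal, layer I and unknown). Total counts of unique molecules (UMIs) ran from 44017566 to 83061737 per saline embryo and from 14078316 to 38034349 per EtOH embryo. The median UMIs per nucleus were 6325 in S2-4 and 8365 to 9051 in the other 4 saline embryos, against 4071.5 to 6911 in the EtOH embryos, so saline embryo S2-4 was as shallow as the EtOH embryos. The 3 embryos of dam S2 also differed more from each other over all genes (chi-square per degree of freedom 50.1 to 92.9 for a pair) than littermates of the other dams did (4.14 to 11.9). Libraries shared 314 barcode sequences, at most 18 between any pair. Defining markers were compared with the labels of the main types: the glial gene Slc1a3 was at 520 CPM (counts scaled to the same total in every sum) in RGC and 67.0 in PN, Eomes was at 347 CPM in IPC and 26.9 in RGC, and Gad2 was at 962 CPM in Int and 40.1 in PN. The PN marker Neurod6 was at 127 CPM in PN, 114 in IPC and 22.8 in Int, and the PN marker Slc17a6 was higher in IPC (449 CPM) than in PN (143 CPM).

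Levels are given as CPM of the counts summed per embryo and cluster, and are compared within a gene only. Because the clusters were made from the same counts, the differences between clusters below are a description with no test. Among the 8 members with enough counts, Dcx, Dclk1, Map2, Map1b and Mapt were higher in PN and Int than in RGC in all 11 embryos, as was Tubb2b by a smaller margin, while Pafah1b1 and Ndel1 were lower in PN and Int than in RGC in all 11 embryos.

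**Figure D1:**
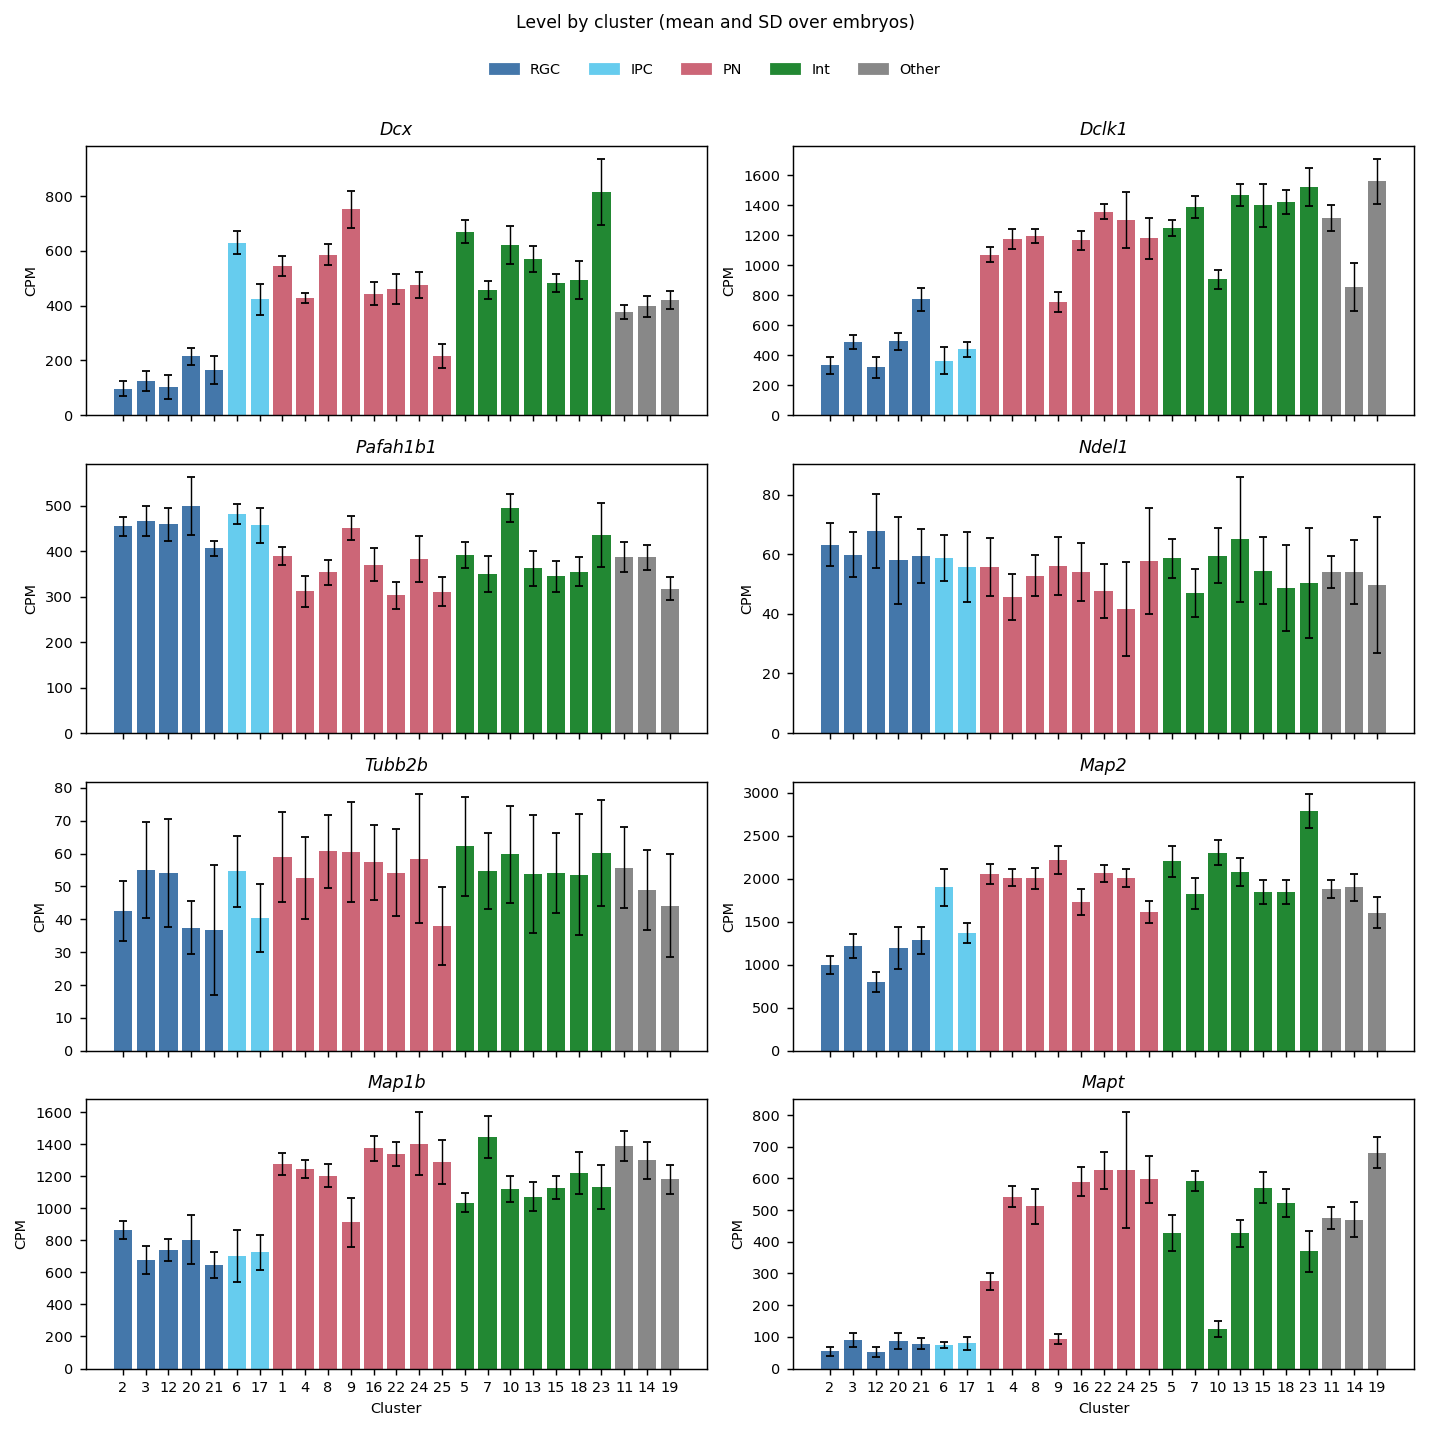
Level of 8 members in each of the 25 clusters, in CPM on a linear axis from 0. Bars are means and whiskers SDs over the embryos with at least 10 nuclei in the cluster, coloured by cell type. Dcx was lowest in Cluster 2 at 97.7 CPM and highest in Cluster 23 at 816 CPM, whereas Mapt was at most at 125 CPM in the RGC and IPC clusters and in Clusters 9 and 10.

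Dcx stood apart in the IPC. Its level was 118 ± 26.6 CPM in RGC (SD, n = 11), 565 ± 45.0 in IPC, 519 ± 21.2 in PN and 565 ± 30.6 in Int, so the IPC as a whole already stood at the level of the neurons. The 2 IPC clusters differed, with means of 424 and 629 CPM. On the log2 scale the per-embryo difference from RGC was 2.27 ± 0.39 in IPC, 2.15 ± 0.37 in PN and 2.28 ± 0.37 in Int (SD, n = 11). Migrating interneurons of Cluster 23 were highest (816 ± 120 CPM, n = 10), followed by early PN of Cluster 9 (751 ± 67.1 CPM, n = 11), and RGC Clusters 3 (125 ± 34.9), 12 (102 ± 43.6) and 2 (97.7 ± 26.3) were lowest. Of the 24 pairs of neighbours in this order, 3 were apart by more than the larger SD of the pair, namely Cluster 9 over 5, Cluster 11 over 25 and Cluster 20 over 21.

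Dclk1, which carries a kinase domain beside its doublecortin domains, did not follow Dcx into the IPC. It was at 415 ± 49.4 CPM in RGC, 387 ± 68.8 in IPC, 1121 ± 46.6 in PN and 1290 ± 68.7 in Int (SD, n = 11), and the IPC level was above that of RGC in 1 of 11 embryos. Within the neurons, the young Clusters 9 (753 CPM) and 10 (906 CPM) were the lowest of their types, and the unknown Cluster 19 was highest at 1557 ± 150 CPM. The RGC cluster means ran from 321 to 773 CPM, so the highest RGC cluster lay above PN Cluster 9.

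Mapt showed the widest range, from 52.8 ± 15.9 CPM in non-mitotic RGC of Cluster 12 to 681 ± 49.9 in Cluster 19, a fold of 12.9. RGC (69.0 ± 13.1 CPM) and IPC (75.6 ± 8.90 CPM) were close together, with the IPC higher in 7 of 11 embryos, and the PN and Int were 6.36 and 6.55 times the RGC level. Early PN of Cluster 9 had 92.5 ± 15.5 CPM and late interneuron precursors of Cluster 10 had 125 ± 26.2 CPM of Mapt, next to 751 and 622 CPM of Dcx in the same clusters. In Cluster 9 Dcx was thus second highest of the 25 clusters while Mapt was far below that of every other PN cluster, and in Cluster 10 Mapt was above the RGC level but lowest of the Int clusters. Mapt reached 276 ± 27.1 CPM in callosal PN of Cluster 1 and 427 CPM in the migrating interneurons of Cluster 5.

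Map2, the microtubule protein of cell bodies and dendrites, was at 1073 ± 104 CPM in RGC, 1729 ± 172 in IPC, 2011 ± 108 in PN and 2046 ± 131 in Int, and Cluster 23 stood above the next cluster by more than the SD (2787 ± 194 CPM). Map1b, which is prominent in growing axons, was at 776 ± 57.6 CPM in RGC, 709 ± 134 in IPC, 1233 ± 64.5 in PN and 1187 ± 96.7 in Int. No pair of neighbours in the Map1b order, nor in those of Pafah1b1, Ndel1 and Tubb2b, was apart by more than the larger SD. Map2 was therefore higher in IPC than in RGC in all 11 embryos (log2 difference 0.69 ± 0.08), whereas Map1b was higher in 2 of 11.

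Pafah1b1 and Ndel1 varied over a narrower range. Pafah1b1 was at 458 ± 20.3 CPM in RGC, 475 ± 19.3 in IPC, 359 ± 23.1 in PN and 388 ± 24.3 in Int, with cluster means from 303 CPM in callosal PN of Cluster 22 to 500 CPM in RGC of Cluster 20. The highest Int cluster mean was close to the latter, at 495 CPM. By medians over embryos, late interneuron precursors of Cluster 10 (503 CPM) stood above Cluster 20 (481 CPM). Ndel1 was at 62.3 ± 6.69 CPM in RGC, 57.7 ± 7.18 in IPC, 51.7 ± 6.14 in PN and 54.0 ± 5.66 in Int. The log2 difference between PN and RGC was -0.35 ± 0.05 for Pafah1b1 and -0.27 ± 0.06 for Ndel1 (SD, n = 11).

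The tubulins gave few counts. Tubb2b was at 46.8 ± 9.99 CPM in RGC and 56.4 ± 10.9 in PN, higher in PN in 11 of 11 embryos, and its cluster means ran from 36.7 to 62.2 CPM. Tubb2b has a close paralog, Tubb2a, and its count is uncertain where the counting could split reads that fit both genes, which was not tested. Tuba1a had 11 UMIs in all 50550 nuclei, its median was 0 CPM in every type, and no level or difference is given for it. Its near-identical paralogs Tuba1b and Tuba1c make that count uncertain, and the cause was not tested. The gene model Gm20388 overlaps Tubb3 on the same strand and held 314705 UMIs, and how reads of the overlap were assigned was not tested.

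**Figure D2:**
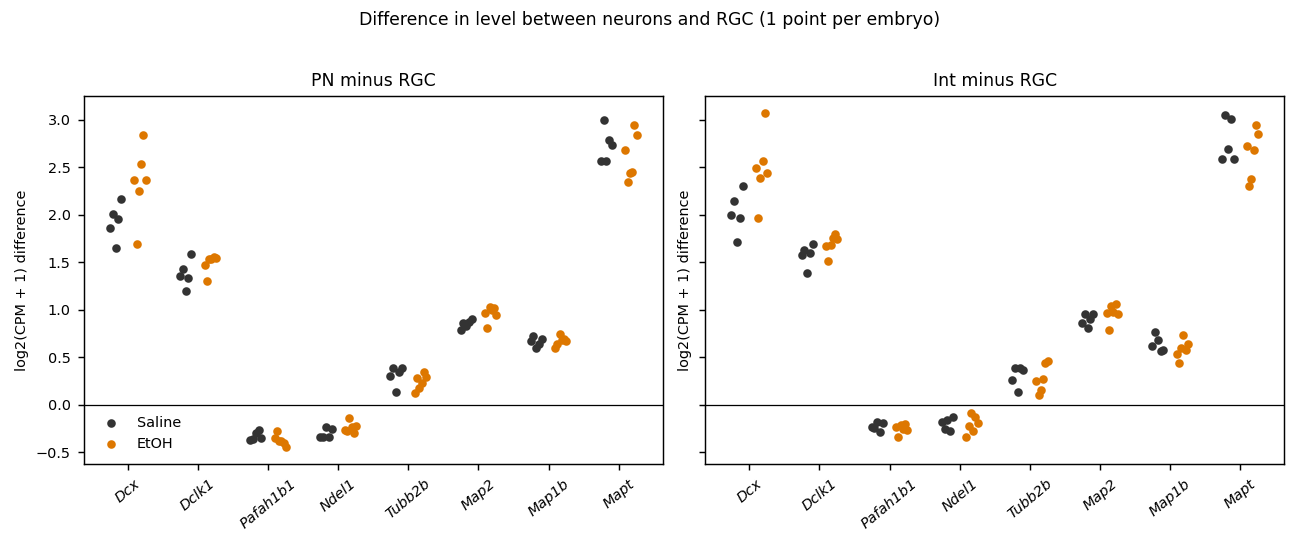
Difference in log2(CPM + 1) between PN and RGC (left) and between Int and RGC (right) for 8 members, 1 point per embryo, saline in dark grey and EtOH in orange. Points lie above 0 for Dcx, Dclk1, Tubb2b, Map2, Map1b and Mapt and below 0 for Pafah1b1 and Ndel1 in all 11 embryos.

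The members fell into groups by their pattern over the 25 clusters, measured by the Pearson correlation of mean log2(CPM + 1), which is a description across clusters that share embryos and libraries. Dcx and Map2 were alike (r = 0.92), and Dcx was the second most alike of 11621 genes to Map2, after Lrrc28 (r = 0.94). Dclk1 and Mapt (r = 0.91) and Map1b and Mapt (r = 0.89) formed another group, while Pafah1b1 ran against Mapt (r = -0.85). The genes most alike to Dcx were Gm9801 (r = 0.95), Soga3 (r = 0.93) and Nsg2 (r = 0.93). Those most alike to Map1b were Stmn2 (r = 0.94), Rab11fip4 (r = 0.93) and Reep1 (r = 0.93), and those most alike to Pafah1b1 were Kdm2a (r = 0.96), Smarca5 (r = 0.96) and Ddx42 (r = 0.95). For Mapt the first was Gm11659 (r = 0.99), which overlaps Mapt on the other strand, followed by Cacna1b and Scn3b (both r = 0.98). For Dclk1, Gm21954 and Gm42609 (both r = 0.97) also overlap it on the other strand, followed by Rusc2 (r = 0.95). The sources used here do not say how strand was counted, so reads of these overlapping pairs may not be told apart. Map2 was next most like 4930402H24Rik (r = 0.92). The weakest likenesses were those of Ndel1 with Mrpl43 (r = 0.88), Kars (r = 0.86) and Rnf126 (r = 0.84) and of Tubb2b with Ncan (r = 0.84), Ss18l1 (r = 0.83) and Scfd2 (r = 0.82). The order depended on the measure. By Spearman (rank) correlation Soga3 fell to place 89 for Dcx and Rnf126 to place 97 for Ndel1, while Gm11659 stayed at place 1 for Mapt.

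On the GRCm38 (mm10) genome, by GENCODE M21, Dcx lies on the minus strand of the X chromosome from 143855842 to 143933311, Dclk1 on the plus strand of chromosome 3 from 55242364 to 55539068, Map2 on the plus strand of chromosome 1 from 66175273 to 66442583 and Map1b on the minus strand of chromosome 13 from 99421446 to 99516540. Pafah1b1 (74673949 to 74724670), Ndel1 (68821434 to 68871858) and Mapt (104231390 to 104332090) share chromosome 11, Tubb2b lies on chromosome 13 from 34126748 to 34130466 and Tuba1a on chromosome 15 from 98949837 to 98953703. Tubb3 lies on chromosome 8 from 123411424 to 123422015. The sequence before the start of 4 members that were higher in neurons than in RGC is shown to set both patterns side by side, Dcx with Map2 and Dclk1 with Map1b. Each was read from RefSeq (GRCm38.p6) on the gene's strand and lies outside the GENCODE M21 gene, next to its start for Dcx, Map2 and Dclk1 and a short way before it for Map1b, and capitals mark CAGATG or TATAAA.
Dcx, chrX:143933312-143933469, minus strand: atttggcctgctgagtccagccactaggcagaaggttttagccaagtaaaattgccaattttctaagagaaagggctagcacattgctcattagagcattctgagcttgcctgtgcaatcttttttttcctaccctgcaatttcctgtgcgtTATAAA
Map2, chr1:66175079-66175272, plus strand: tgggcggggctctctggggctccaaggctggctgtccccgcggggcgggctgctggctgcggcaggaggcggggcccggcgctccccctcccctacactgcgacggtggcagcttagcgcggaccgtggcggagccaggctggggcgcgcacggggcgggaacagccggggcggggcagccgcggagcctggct
Dclk1, chr3:55242114-55242363, plus strand: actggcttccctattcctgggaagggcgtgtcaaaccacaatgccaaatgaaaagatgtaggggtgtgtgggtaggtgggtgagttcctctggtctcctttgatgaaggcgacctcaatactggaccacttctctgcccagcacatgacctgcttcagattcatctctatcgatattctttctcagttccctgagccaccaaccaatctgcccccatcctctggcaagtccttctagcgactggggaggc
Map1b, chr13:99516603-99516852, minus strand: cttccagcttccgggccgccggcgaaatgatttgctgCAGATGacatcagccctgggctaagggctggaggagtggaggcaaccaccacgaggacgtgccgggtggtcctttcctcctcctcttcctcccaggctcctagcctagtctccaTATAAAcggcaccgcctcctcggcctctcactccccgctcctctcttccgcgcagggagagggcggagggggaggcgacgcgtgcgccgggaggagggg
Over the whole 250 bases before the start, GC content was 41.6% for Dcx with 3 CG pairs, 52.4% for Dclk1 with 4, 66.4% for Map1b with 19 and 81.2% for Map2 with 34, against medians of 52.4% and 6 CG pairs over 32851 mouse promoters. Dcx and Map2, the pair most alike in level over the clusters, were thus at opposite ends in base composition. Of 4 motifs searched on both strands, TATAAA was found in Dcx and Map1b (12.4% of all promoters), CAGATG in Map1b (14.4%), and CAGCTG (13%) and TTCAGCACC (0.301%) in none of these 4 windows. These matches are letters in a window and not shown to be bound. RefSeq promoters matched 8 of the 10 members, and the ones without were Tubb2b and Mapt. Dcx and Dclk1 had 2 promoters each, and the first is shown. The second had a GC content of 44.8% with 3 CG pairs for Dcx. For Dclk1 it had 46.8% with 4 CG pairs and lay inside the gene.

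The comparison of EtOH with saline embryos asked which members changed with prenatal exposure, in which cells. The members did not move as 1 block. In the sums by cell type, all 5 log2 differences were negative for Dclk1, Pafah1b1, Map2 and Map1b and all 5 were positive for Ndel1, Tubb2b and Mapt, mostly by small amounts. Dcx had no single direction. Its 5 values by type were also negative, from -0.46 in RGC to -0.00 in IPC and Int, but 13 of its 25 cluster values were positive. The clusters and types share the same embryos and litters, so equal signs over them are not independent of each other. How often any gene had equal signs over the clusters was not tested. All these log2 differences came from edgeR with TMM scaling, which the levels in CPM lack, so they can differ from the levels in size and sign. In CPM, mean Dcx was lower in EtOH than in saline embryos in RGC (104 against 135) and the others (389 against 399). It was higher in IPC (576 against 551), PN (523 against 513) and Int (578 against 551). A gene was called when edgeR's quasi-likelihood test gave a Benjamini-Hochberg adjusted p under 0.05 over all genes tested and the log2 difference was over 0.32 in size. By cluster, 2 of 199 member tests were called, Mapt in Cluster 3 and Map2 in Cluster 12, against a background of 0.792% of all tests in the 25 clusters, 1.85% in Cluster 3 and 0.656% in Cluster 12. By type, 1 of 40 was called, Map1b in IPC, and the share of all genes called was 3.79% in RGC, 1.52% in IPC, 6.53% in PN, 4.83% in Int and 1.253% in the other clusters. With edgeR no member was called in RGC, PN, Int or the other clusters, where 6, 6, 4 and 5 of 8 members had an unadjusted p under 0.05, against 29.8%, 32.8%, 28.3% and 22.4% of all genes. DESeq2 called 1 member each in RGC and IPC and none in PN, Int or the others. The shares of all genes above are those of edgeR, and with none given for DESeq2, nothing particular to the members is read from its count.

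**Figure D3:**
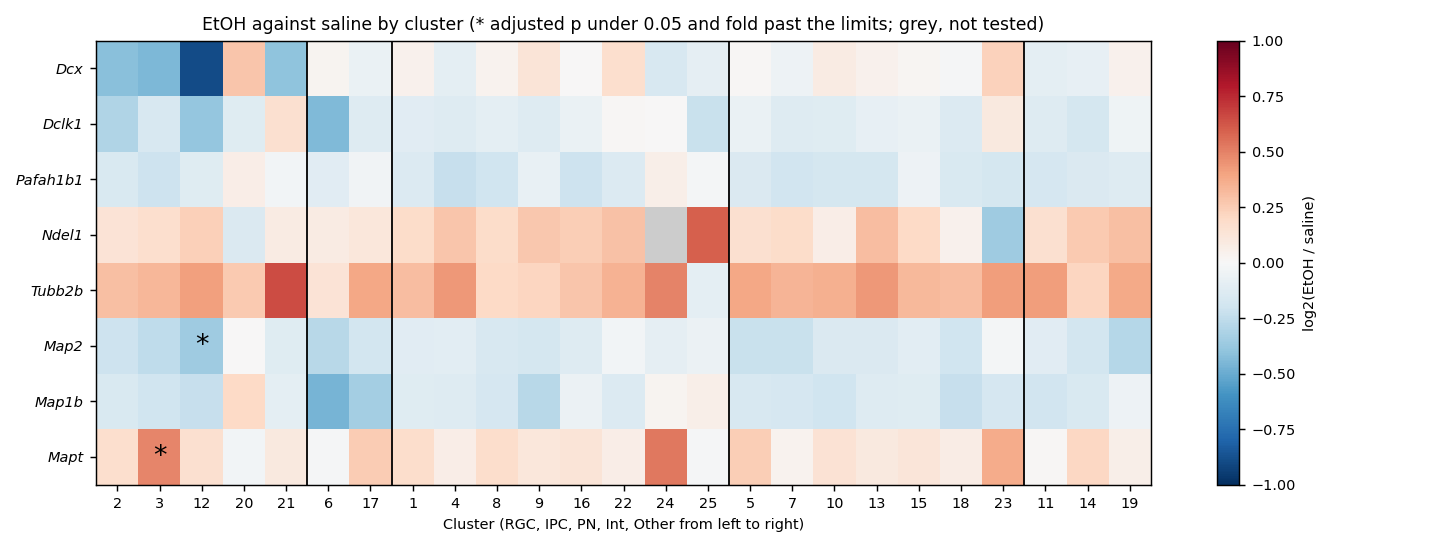
Log2 ratio of EtOH over saline for 8 members (rows) in 25 clusters (columns, by cell type), from edgeR, with blue for lower and red for higher in EtOH on a scale from -1 to 1. Asterisks mark the 2 called tests, Mapt in Cluster 3 and Map2 in Cluster 12, and grey the 1 test not made, Ndel1 in Cluster 24. Tubb2b is red in 24 of 25 clusters and Map2 blue in 24 of 25, and the clusters share the same embryos.

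Saline embryo S2-4 bears on most of these results. Without it, edgeR called 15 member tests by cluster and 5 by type, where all embryos gave 2 and 1. The share of all genes called rose as well, to 8.78% by cluster and from 3.75% to 16.9% by type, so the rise was not particular to the members. In several measures S2-4 lay with the EtOH embryos: Ndel1 in PN was 55.7 CPM in S2-4, 43.0 to 48.4 in the other 4 saline embryos and 53.4 to 60.1 in EtOH embryos. Its median depth was within the EtOH range, as given above. In RGC the median UMIs per nucleus were 5837 to 8204 in saline and 3520 to 5834 in EtOH embryos, and in IPC 5339 to 7726 and 3591 to 5549. The part of depth in the member differences was not tested.

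Mapt rose in Cluster 3, named interneuron precursors by the authors and counted among the RGC. Its levels were 74.3, 64.4, 69.2, 69.7 and 78.8 CPM in saline embryos S1-1, S1-2, S2-1, S2-2 and S2-4, and 86.9 to 123 CPM with a median of 105 in the 6 EtOH embryos. The groups did not overlap, and the log2 difference was 0.49 ± 0.10 (SE, edgeR adjusted p = 0.0319), a fold of 1.40. The log2 difference was 0.63 in batch 1 alone (edgeR adjusted p = 0.0499) and 0.43 in batch 2 alone (0.349). The call was lost after thinning to 2000 UMIs per nucleus (0.69, adjusted p = 0.0520) and when any one of E1-2, E2-1, E2-2, E2-3, E2-4, S1-1, S1-2 or S2-1 was left out (adjusted p up to 0.0979). Over all clusters Mapt had a positive difference in 22 of 25, with groups that did not overlap also in callosal PN of Cluster 1 (log2 0.18 ± 0.06, adjusted p = 0.0883) and migrating interneurons of Cluster 5 (log2 0.25 ± 0.08, adjusted p = 0.0749), neither of them called by edgeR. Groups did not overlap in 7 of 199 member tests by cluster, against 2.14% of all tests. By type, the batches disagreed for Mapt: in PN its log2 difference was 0.01 in batch 1 and 0.21 in batch 2, and in Int -0.05 and 0.16.

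Map2 fell in Cluster 12, the non-mitotic RGC, where it was also lowest of all clusters. Its levels were 977, 838, 1013, 901 and 754 CPM in S1-1, S1-2, S2-1, S2-2 and S2-4, and 686 to 793 CPM with a median of 716 in EtOH embryos. The only overlap came from S2-4, and the log2 difference was -0.35 ± 0.08 (SE, edgeR adjusted p = 0.0488). It was -0.33 in batch 1 alone (edgeR adjusted p = 0.126) and -0.37 in batch 2 alone (0.388), neither of them called. The call was also lost with counts summed per dam and when any single embryo other than S2-4 was left out (adjusted p up to 0.140). Over the RGC as a whole, saline levels were 1241, 1142, 1258, 1095 and 1045 CPM in the same order and EtOH levels 942 to 1055 with a median of 1009, a log2 difference of -0.29 ± 0.07 that passed the adjusted p (edgeR, 0.0445) but not the fold limit. Here too S2-4 alone lay within the EtOH range. Map2 was lower by about as much in batch 1 (log2 -0.29) and batch 2 (-0.26) in RGC, and its difference was negative in 24 of 25 clusters. With every RGC cluster weighted equally and no TMM, the Map2 difference in RGC was -0.18 (exact permutation p = 0.0455).

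Map1b fell in IPC. It was at 672, 735, 920, 992 and 720 CPM in S1-1, S1-2, S2-1, S2-2 and S2-4, and at 576 to 702 CPM with a median of 606 in EtOH embryos. The groups overlapped through S1-1, and S2-1 and S2-2 stood well above the rest. The log2 difference was -0.43 ± 0.09 (SE, edgeR adjusted p = 0.0470). It was -0.23 in batch 1 alone (edgeR adjusted p = 0.0958) and -0.55 in batch 2 alone (0.398), neither of them called. The call was lost with batch as a replicate block, with counts summed per dam, with the dam as a random block, and when any single embryo other than S2-4 was left out. Both IPC clusters had negative values (Cluster 6, -0.47 ± 0.12, edgeR adjusted p = 0.0675, and Cluster 17, -0.34 ± 0.09, adjusted p = 0.113), and over all clusters the difference was negative in 22 of 25. With both IPC clusters weighted equally and no TMM, the Map1b difference in IPC was -0.35 (exact permutation p = 0.00433).

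**Figure D4:**
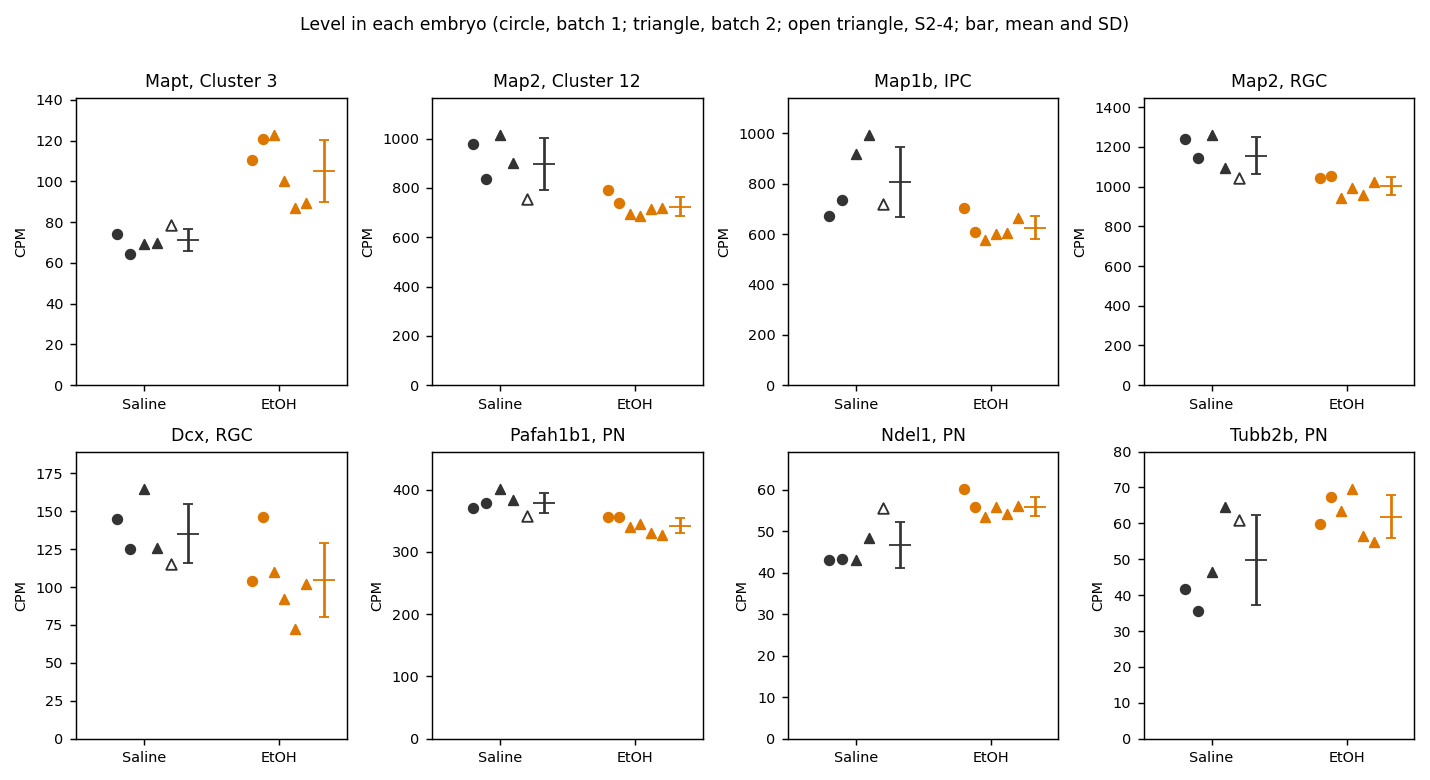
Level in each embryo, in CPM on linear axes from 0, for 8 pairs of a member and a cluster or type. Circles are batch 1, triangles batch 2, the open triangle is S2-4, and the bar beside each group is its mean and SD (5 saline and 6 EtOH embryos). The groups do not overlap for Mapt in Cluster 3 and Pafah1b1 in PN, and S2-4 lies within the EtOH range for Ndel1 in PN.

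Dcx had its most negative value by type in RGC, where it is least expressed. It was at 145, 125, 165, 126 and 115 CPM in S1-1, S1-2, S2-1, S2-2 and S2-4, and at 72.2 to 146 CPM with a median of 103 in EtOH embryos, a log2 difference of -0.46 ± 0.16 that was not called (SE, edgeR adjusted p = 0.0904). The EtOH embryo E1-2 at 146 CPM accounted for the overlap with the saline range. DESeq2 called this difference (adjusted p = 0.0392), and so did edgeR without S2-4 (-0.53, adjusted p = 0.0423). The largest negative value was in Cluster 12 (-0.89 ± 0.29, edgeR adjusted p = 0.144), which was called in batch 1 alone, by DESeq2, with counts summed per dam, after thinning and without S2-4. RGC Cluster 20 ran the other way, at 198 CPM in saline and 238 CPM in EtOH embryos (log2 0.28 ± 0.13, SE), and was not called, nor were Clusters 2 (-0.42), 3 (-0.45) and 21 (-0.40). In the neurons the Dcx values were -0.02 ± 0.05 in PN and -0.00 ± 0.07 in Int, and leaving out 1 embryo gave values on both sides of 0. With every cluster of a type weighted equally and no TMM, the difference was -0.49 in RGC (exact permutation p = 0.0108) but 0.14 in PN (exact permutation p = 0.0173). Dclk1 had negative values in all 5 types, from -0.11 ± 0.06 in PN to -0.33 ± 0.11 in IPC (edgeR adjusted p = 0.109), and none was called. The IPC value was called in batch 1 alone (-0.36), after thinning (-0.47, adjusted p = 0.0481) and without S2-4 (-0.42, adjusted p = 0.00464), but it was -0.21 without S2-1. Dclk1 in RGC was called without S2-4 (-0.35, adjusted p = 0.00186).

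Pafah1b1 and Ndel1, whose products act together on dynein, differed from saline in opposite directions. Pafah1b1 in PN was at 371, 379, 401, 384 and 357 CPM in S1-1, S1-2, S2-1, S2-2 and S2-4 and at 328 to 357 CPM with a median of 342 in EtOH embryos. The groups did not overlap, by a margin of under 1 CPM, and the log2 difference was -0.19 ± 0.05 (SE, edgeR adjusted p = 0.0345), a fold of 0.875 and so inside the fold limit. Ndel1 in PN was at 43.1, 43.4, 43.0, 48.4 and 55.7 CPM in the same saline embryos and at 53.4 to 60.1 CPM with a median of 55.7 in EtOH embryos, where only S2-4 lay in the EtOH range. Its log2 difference was 0.21 ± 0.06 (SE, edgeR adjusted p = 0.0378), a fold of 1.16. Neither kept its adjusted p under 0.05 after thinning to 2000 UMIs (edgeR, -0.13 and 0.165 for Pafah1b1, 0.085 and 0.642 for Ndel1) or with counts summed per dam (adjusted p = 0.348 and 0.241), nor did Pafah1b1 without any single embryo other than E1-1 or S2-4 (up to 0.0929) or Ndel1 without any other than S2-4 (up to 0.0976). Both kept their direction in each batch, with -0.18 and -0.19 for Pafah1b1 and 0.31 and 0.16 for Ndel1 in PN. With every cluster of a type weighted equally and no TMM, the PN difference was -0.08 for Pafah1b1 (exact permutation p = 0.0498). For Ndel1 it was 0.29 (exact permutation p = 0.00216). Of the 40 member tests by type the groups failed to overlap in 3, Pafah1b1 in RGC and PN and Ndel1 in the other clusters, against 2.83% of genes in RGC, 2.24% in IPC, 3.27% in PN, 2.73% in Int and 2.09% in the other clusters.

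Tubb2b had a positive difference in all 5 types and in 24 of 25 clusters, the exception being Cluster 25 with 2 EtOH embryos, and none was called. In PN it was at 41.6, 35.5, 46.6, 64.6 and 60.9 CPM in S1-1, S1-2, S2-1, S2-2 and S2-4 and at 54.8 to 69.6 CPM with a median of 61.6 in EtOH embryos (log2 difference 0.28 ± 0.12, edgeR adjusted p = 0.138). Both embryos of dam S1 were the lowest of all, and the difference was 0.61 in batch 1 (adjusted p = 0.00402) and 0.09 in batch 2. In RGC it was 0.75 in batch 1 and 0.10 in batch 2. Each batch held 1 litter per treatment, so batch and litter cannot be told apart in the size of the Tubb2b difference.

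Whether the EtOH difference of a member was unlike in neurons and RGC was tested on the per-embryo difference between the types in log2 CPM scaled by TMM within each type with a prior count of 2, another scale than the log2(CPM + 1) used for levels, in 16 two-sided exact permutation tests over 11 embryos, whose p-values are unadjusted and cannot go below 0.00216. The difference of PN from RGC was less negative in EtOH than in saline embryos for Ndel1 (saline -0.34 ± 0.05, EtOH -0.22 ± 0.06, difference 0.11, exact p = 0.00433), and more positive for Map2 (0.82 ± 0.05 and 0.98 ± 0.10, difference 0.16, exact p = 0.0152) and for Dcx (1.91 ± 0.20 and 2.37 ± 0.39, difference 0.47, exact p = 0.0455). Between Int and RGC it differed for Dcx (2.02 ± 0.21 and 2.503 ± 0.365, difference 0.48, exact p = 0.0303). The Dcx difference between PN and RGC was 0.12 in batch 1 and 0.64 in batch 2, and that of Map2 was 0.09 and 0.20. On the log2(CPM + 1) scale, tried after the data were seen, the values were 0.06 for Ndel1 (exact p = 0.0974), 0.11 for Map2 (exact p = 0.0303) and 0.42 and 0.46 for Dcx in PN and Int (exact p = 0.0584 and 0.0303), so Ndel1 and Dcx in PN lost a p under 0.05. After thinning to 2000 UMIs the Ndel1 value was -0.033. The other 12 tests, among them all those of Pafah1b1, Tubb2b, Map1b, Mapt and Dclk1, had a p above 0.05, except that Dclk1 between Int and RGC had an exact p of 0.0381 when labels were exchanged within batches, and the intervals of their differences were not computed.

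The share of nuclei with at least 1 UMI was compared at 2000 UMIs per nucleus, since the EtOH nuclei were shallower. At that depth 62.5 ± 1.28% of PN, 65.6 ± 2.24% of Int, 59.0 ± 2.17% of IPC and 15.7 ± 5.62% of RGC had a Dcx UMI (SD, n = 11), and as counted these were 93.5%, 93.6%, 81.7% and 36.7%, with median depths of 7630.5, 7445, 5939 and 6477.5 UMIs. Mapt had a UMI in 48.8 ± 3.32% of PN, 51.9 ± 3.60% of Int, 11.2 ± 1.00% of IPC and 9.89 ± 1.80% of RGC. RGC also carried some UMIs of neuronal genes (Gad2 at 88.3 CPM, Neurod6 at 20.6 CPM), and they include Cluster 3, named interneuron precursors by the authors. The parts of free RNA and of the cells' own RNA in the RGC shares were not tested.

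**Figure D5:**
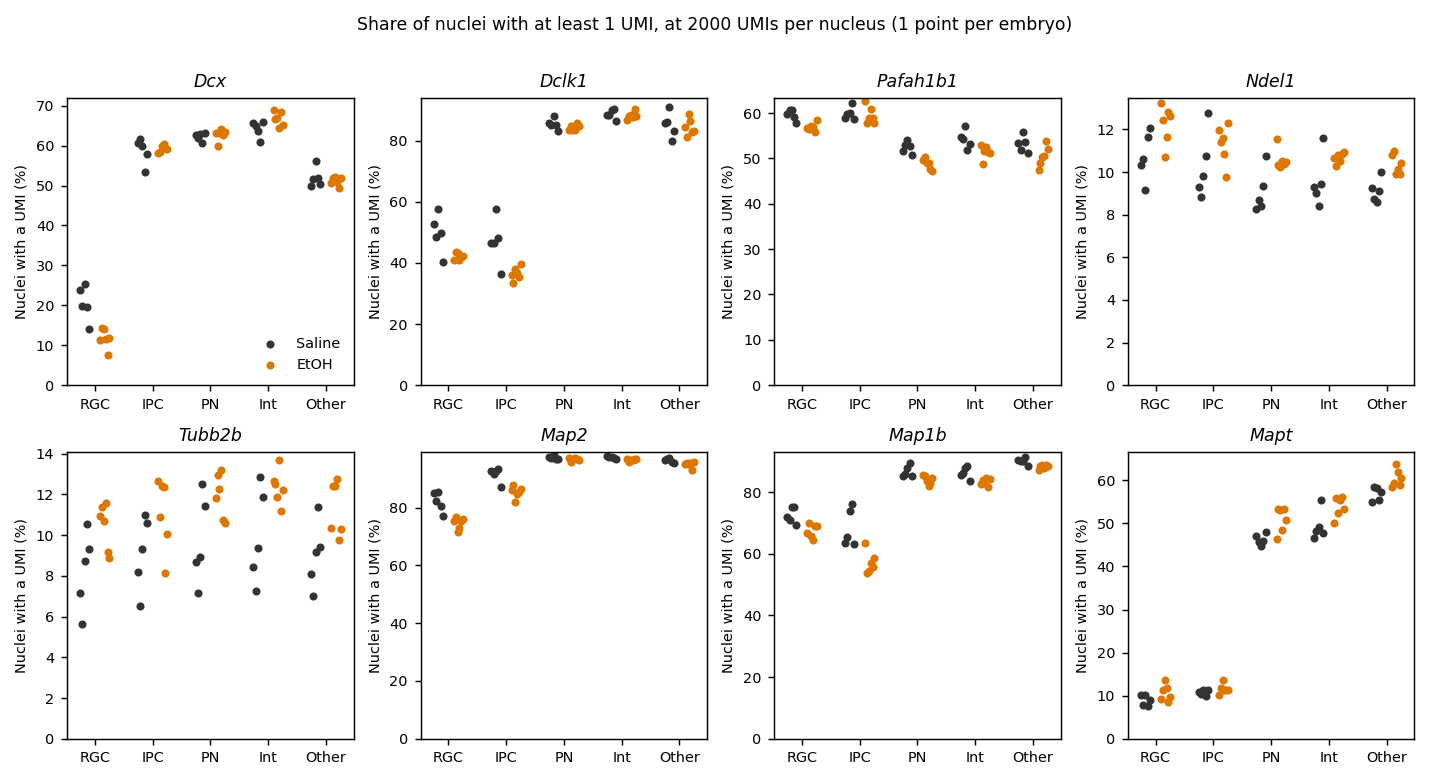
Share of nuclei with at least 1 UMI at 2000 UMIs per nucleus, in percent from 0, for 8 members in 5 cell types, 1 point per embryo, saline in dark grey and EtOH in orange. Dcx in RGC averaged 20.5% in saline and 11.7% in EtOH embryos, and Map1b in IPC 68.4% and 57.2%.

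Of 40 two-sided exact permutation tests of these shares, 25 had an unadjusted p under 0.05, and 23 when labels were exchanged within batches, where Ndel1 (exact p = 0.0667) and Tubb2b (exact p = 0.0810) in RGC no longer had one. The same tests were not run over all genes, so nothing particular to the members is read from these counts. Map1b was lower in EtOH embryos in 5 of 5 types and Map2 in 4 of 5 with a p under 0.05, Ndel1 was higher in 4 of 5 and Mapt in 3 of 5. In RGC, Dcx UMIs were found in 23.8, 19.8, 25.3, 19.5 and 14.0% of nuclei in S1-1, S1-2, S2-1, S2-2 and S2-4 and in 7.49 to 14.4% in EtOH embryos, so S2-4 alone entered the EtOH range (exact p = 0.00433). Map2 in RGC averaged 82.1 ± 3.36% in saline and 74.6 ± 1.97% in EtOH embryos without overlap (exact p = 0.00216, the smallest these embryos can give), and Pafah1b1 in PN 52.4 ± 1.29% and 48.8 ± 1.17%, also without overlap (exact p = 0.00216). Map1b in IPC averaged 68.4 ± 6.23% and 57.2 ± 3.50% (exact p = 0.00866), and Mapt in PN 46.3 ± 1.26% and 50.9 ± 2.99% (exact p = 0.0173). Shares as counted were lower in EtOH embryos for all of these genes, also for Ndel1 and Mapt, whose direction thus turned with the thinning.

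A wider list of 139 microtubule genes, of which 138 had a row, set the members beside their pathway. By type, edgeR called 3 of 131 tested genes in RGC, 0 of 128 in IPC (23 with an unadjusted p under 0.05), 1 of 131 in PN, 4 of 134 in Int and 0 of 129 in the other clusters (27 with an unadjusted p under 0.05), shares that were below the background of all genes in each type. Svbp, the partner of the vasohibins that remove the last tyrosine of alpha tubulin, rose in RGC (log2 0.60 ± 0.14, edgeR adjusted p = 0.0402), PN (0.48 ± 0.12, 0.0352) and Int (0.58 ± 0.11, 0.0197). The beta tubulin Tubb4a and the minus-end protein Camsap3 rose in Int (0.40 ± 0.09 and 0.39 ± 0.09, edgeR adjusted p = 0.0329 and 0.0349). Cdk5r1, the activator of the kinase Cdk5 that phosphorylates Dcx, Ndel1 and tau, fell in RGC (-0.50 ± 0.12, edgeR adjusted p = 0.0402) and Int (-0.38 ± 0.10, 0.0392), and Mark1, a kinase of microtubule proteins, fell in RGC (-0.36 ± 0.10, 0.0494). Apart from Mark1 (145 CPM in saline and 119 in EtOH embryos in RGC), the levels were low. In RGC, Svbp averaged 9.44 CPM in saline and 15.1 in EtOH embryos, and Cdk5r1 15.2 and 11.3. In Int, Tubb4a averaged 21.9 and 30.6 CPM and Camsap3 19.6 and 26.7. The number of these calls changed with the processing, as given in the last section.

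By cluster, 8 of 2903 tests of the wider list were called (0.276%, against 0.792% of all tests), and they are given as single values. Reln, which encodes the secreted migration signal reelin, fell in 3 clusters, Cluster 12 (log2 -1.68 ± 0.28, edgeR adjusted p = 0.0297), Cluster 17 (-1.09 ± 0.18, 0.0353) and Cluster 9 (-0.85 ± 0.17, 0.0376). Reln defines the layer I cells of Cluster 14, where it was at 10477 CPM, and in RGC it was at 106 ± 32.6 CPM in saline and 50.2 ± 20.3 in EtOH embryos, so the part of RNA from layer I cells in these clusters was not tested. Mapk8 (JNK1) fell in Cluster 3 (-0.36 ± 0.08, edgeR adjusted p = 0.0319) and Slain2, a plus-end protein, in Cluster 8 (-0.36 ± 0.08, 0.0405), while Svbp (0.77 ± 0.16, 0.0281) and Tubb4a (0.55 ± 0.13, 0.0412) rose in Cluster 5 and the kinesin light chain Klc1 rose in Cluster 9 (0.37 ± 0.09, 0.0445).

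A check used 19 markers of cell types that the authors removed (fibroblasts, pericytes, microglia, endothelium, oligodendrocyte precursors and thalamus) and of red cells, whose hemoglobin genes they filtered on. The markers summed to 181 to 205 CPM in saline and 195 to 300 CPM in EtOH embryos in RGC and to 76.6 to 134 and 79.7 to 131 CPM in IPC. In PN the sums were 89.3 to 166 and 76.3 to 123 CPM, in Int 154 to 368 and 143 to 509, and in the other clusters 189 to 385 and 197 to 365. In RGC the thalamic gene Ntng1 made up most of the sum at 133 CPM, followed by P2ry12 (18.7 CPM), Mcam (12.5 CPM) and Pdgfrb (11.8 CPM), while endothelial Cd93 (1.34 CPM), microglial Ly86 (0.576 CPM) and thalamic Gbx2 (0.0834 CPM) were the lowest of their cell types. Ntng1 was also at 67.4 CPM in PN, 185 in Int and 212 in the other clusters, and highest in PN Cluster 24 at 600 CPM. It was thus not a marker of removed cells alone. The part of these cells in the RGC differences was not tested.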

How the data were processed

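The authors aligned the snRNAseq reads with Cell Ranger at default settings to mm10, removed low-quality nuclei, non-neuronal types and thalamic cells, and clustered the nuclei with Seurat. They deposited raw UMI counts per gene and nucleus, 1 table per embryo and cluster. The Cell Ranger version, the use of strand and the treatment of doublets are not given in the sources used here, and no doublet caller was run.

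Counts were summed per embryo and cluster, keeping embryos with at least 10 nuclei, or per embryo and cell type, and scaled to CPM. EtOH was compared with saline by edgeR 4.0.16 (TMM, filterByExpr, robust quasi-likelihood test, R 4.3.3) over all genes of a cluster or type, with Benjamini-Hochberg adjustment. DESeq2 1.42.0 and limma 3.58.1 were alternatives, beside other normalizations, filters, thinning, batches and left-out embryos. Exact permutation tests over embryos used SciPy 1.17.1 and NumPy 2.4.6, and their p-values were left unadjusted. Shares were expected shares after drawing 2000 UMIs from each nucleus with at least that many. The scripts were tested on simulated data.

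The members and gene lists were chosen with earlier results of these data known. Genes of the wider list were named where they were called. Dams of equal number shared a batch, but embryo numbers do not pair embryos. Intervals for counting error were not computed, since embryos were the replicates.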

Additional observations from a re-analysis of the deposited data

Results flagged for a closer look

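In 8 of 80 groups of embryos (8 members, 5 cell types, 2 treatments), 1 embryo stood apart from its group by Dixon's 95% limit, which chance alone exceeds in about 1 in 20 groups. Dclk1 in RGC was highest in EtOH embryo E1-2 at 436 CPM, where the rest of its group had 369 to 387 CPM. Dclk1 in Int was lowest in saline embryo S2-4 at 1169 CPM, where the rest of its group had 1341 to 1387 CPM. Dclk1 in the other clusters was lowest in EtOH embryo E1-2 at 1065 CPM, where the rest of its group had 1168 to 1220 CPM. Dcx in IPC was lowest in saline embryo S2-2 at 469 CPM, where the rest of its group had 563 to 578 CPM. Dcx in PN was lowest in EtOH embryo E1-2 at 473 CPM, where the rest of its group had 523 to 542 CPM. Dcx in the other clusters was highest in saline embryo S2-1 at 442 CPM, where the rest of its group had 382 to 399 CPM. Ndel1 in the other clusters was highest in EtOH embryo E1-1 at 65.6 CPM, where the rest of its group had 54 to 56.8 CPM. Pafah1b1 in Int was lowest in EtOH embryo E1-2 at 341 CPM, where the rest of its group had 371 to 385 CPM. EtOH embryo E1-2 was the one apart in 4 of these and S2-4 in 1.

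On TMM-scaled log2 CPM, exact permutation tests of whether the EtOH difference was unlike in neurons and RGC had an unadjusted p under 0.05 for Dcx (difference 0.47 on the log2 scale in PN, exact p = 0.0455, and 0.48 in Int, exact p = 0.0303), Ndel1 in PN (0.11, exact p = 0.00433) and Map2 in PN (0.16, exact p = 0.0152). On log2(CPM + 1) the exact p was 0.0584 for Dcx in PN and 0.0974 for Ndel1 in PN, and the Ndel1 value was -0.033 after thinning.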

How the results depend on the processing

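The number of member tests called by cluster was 2, and it was 5 with DESeq2, 9 in batch 1 alone, 0 in batch 2 alone (edgeR, 25 with an unadjusted p under 0.05), 9 with no filter on low counts, 4 after thinning and 0 to 15 when 1 embryo was left out. By cell type it was 1, and 2 with DESeq2, 5 in batch 1, 0 in batch 2 (edgeR, 9 with an unadjusted p under 0.05), 0 with batch as a replicate block (24), 0 with counts summed per dam (10), 0 with limma voom (24), 2 with no filter, 3 after thinning and 0 to 5 when 1 embryo was left out. The replicate block kept both calls by cluster (edgeR adjusted p = 0.0408 for Mapt and 0.0474 for Map2). For the wider list by cluster the count was 8, and 33 with DESeq2, 62 in batch 1, 1 in batch 2, 19 with limma voom, 61 with no filter and 0 to 104 when 1 embryo was left out. By type it was 8, and 15 with DESeq2, 53 in batch 1, 0 in batch 2, 2 per dam, 13 with no filter, 4 after thinning and 0 to 43 when 1 embryo was left out. The highest of these 4 counts with 1 embryo left out came without S2-4. Apart from that setting, the shares of all genes called in the alternatives are not given here. Nothing particular to the members or to the wider list is therefore read from these counts. The count of effects that differed between neurons and RGC was 4, and 7 after thinning, 2 on log2(CPM + 1) with no TMM and 2 to 7 when 1 embryo was left out. The Ndel1 difference between PN and RGC turned to -0.033 after thinning. Among shares with a p under 0.05 at 2000 UMIs, those as counted turned direction for Dcx in Int (-0.98 percentage points), Ndel1 in RGC (-4.92), PN (-2.41), Int (-3.51) and the other clusters (-2.51), Tubb2b in RGC (-1.52) and the other clusters (-0.853), and Mapt in PN (-0.953), Int (-0.825) and the other clusters (-0.601). Shares as counted move with depth by construction, and the cause of the other changes was not tested. Batch alternatives and log2(CPM + 1) were chosen after seeing the data.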
